A study of Mus musculus with 88 samples.

Results

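The ribosomal proteins of the cytosol were followed in dendritic cells as lipopolysaccharide (LPS, a bacterial wall component that activates these cells) changed what the cells made. Members were the protein groups whose first gene name is a cytosolic ribosomal protein name (Rpl or Rps with a number, Rplp0, Rplp1, Rplp2 or Rpsa, without the S6 kinases). They numbered 74 of 5899 protein groups, 43 of the large (60S) and 31 of the small (40S) subunit. The rule used names alone and no measured value.

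The marrow came from C57BL/6J females, and its cells were grown to day 9 in GM-CSF, a growth factor that drives them toward dendritic and macrophage forms. They were labelled with medium amino acids (M: Arg6, Lys4), pooled, and moved at 0 h into heavy amino acids (H: Arg10, Lys8) with either 100 ng per ml LPS or no stimulus (mock). Older protein therefore carries M and newer protein H, and each was read against a mix of unlabelled cells (L). The 42 trypsin runs fell into 21 groups of 2 replicates, at 0 h and, under each treatment, at 0.5 h, hourly from 1 to 6 h, and at 9, 12 and 24 h. The protocols describe times up to 12 h, and the 24 h groups rest on the sample labels. AspN and LysN, enzymes that cut at other residues, gave 2 unlabelled 0 h samples each. Whether the replicates came from separate cultures is not stated in the labels, and the p-values cover the spread of these runs alone, part of which may be technical. A run held between 64703 and 91015 H/L peptide pairs, and a member had a median of 28.5 pairs in a run (range over members 1 to 96). Of the dendritic markers, Itgax, H2-Ab1, H2-Aa, Cd74 and Itgam were measured in all 42 runs, while Flt3 and Zbtb46 had no protein group. Of the macrophage markers, Csf1r, Cd68 and Apoe were measured in all 42 runs and Emr1 in 25, and Mertk had no protein group. S100a8, a granulocyte and monocyte protein, ranked 18 and 16 by intensity per possible peptide at 0 h. All 6 granulocyte markers had M/L ratios, and none of the 4 lymphocyte markers had a protein group. The run of LPS 12 h replicate 2 stood apart in its overall level against the reference, with a log2 run factor of 0.69, where the others lay between -0.68 and 0.21, and the late counts are given without it below. The cells were measured in bulk, so a change within cells and a change in the mix of cells cannot be told apart.

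A ribosome is built from ribosomal RNA and a matched set of ribosomal proteins, which are made in the cytosol, carried to the nucleolus for assembly and returned as subunits. Copies that find no place in a subunit are usually degraded quickly, while assembled subunits are long-lived. The messenger RNAs of ribosomal proteins begin with a C and a run of pyrimidines (the 5′ TOP motif), through which the TOR kinase pathway sets their translation together.

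The stretch around the annotated start of 5 members is shown because these members return in the results below and their transcripts are annotated to begin with that motif. The RefSeq promoter table of build GRCm38.p6 matched 52 of the 74 members by symbol, with 63 entries. Capitals mark the C at the annotated start and the unbroken pyrimidines (C or T) after it, and each stretch is written 5′ to 3′ on the strand of the gene. Rpl35a lies at chr16:33056472-33056496 on the + strand, Rplp2 at chr7:141447641-141447665 (+), Rps6 at chr4:86857353-86857377 (-), Rpl14 at chr9:120571507-120571531 (+) and Rpl35 at chr2:39005117-39005141 (-).
Rpl35a: gcttgccttcCTCTTTCCgccatct
Rplp2: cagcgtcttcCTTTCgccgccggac
Rps6: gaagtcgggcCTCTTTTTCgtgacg
Rpl14: ggccctctctCTTCTCgctgagcgc
Rpl35: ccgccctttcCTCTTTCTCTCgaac
A C at the annotated start followed by at least 4 pyrimidines, read on the gene's strand only, stood in 17.5% of the 63 member entries (11) and in 2.51% of all 32851 entries. With at least 5 pyrimidines after a C anywhere from 6 bases before to 12 bases from the start, the shares were 41.3% and 13.0%. The 5 members differed widely in what follows. Rpl35a had the largest late rise in new protein and Rplp2 the second largest late rise in heavy share. In late total level Rps6 rose and Rpl14 fell.

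Newly made ribosomal protein was higher after LPS, late in the course. Over 6, 9 and 12 h (6 runs in each arm), new protein, taken as the log2 of H/L scaled to each run, was called higher for 27 of the 71 members tested (38.0%), against 10.4% of all proteins, and no member was called lower, against 1.69% of all proteins. Changes were tested with limma across all proteins and called at a Benjamini-Hochberg adjusted p under 0.05. The median change over members was 0.52, against 0.03 for all proteins, and 68 of 71 estimates lay above 0. Of 41 large subunit members 14 were called, and of 30 small subunit members 13, with medians of 0.51 and 0.59. The difference between the subunit medians, -0.08 on the log2 scale, was not tested, since members share runs and complexes. Rpl39, Rpl32-ps and Rps27 had too few values for this comparison. The 10 lowest estimates, none of them called, were those of Rpl24 (-0.43), Rpl8 (-0.16), Rpl34 (-0.0011), Rps27a (0.09), Rpl10 (0.13), Rpl22 (0.15), Rplp0 (0.15), Rps15 (0.16), Rpl38 (0.19) and Rps21 (0.22). Without the 12 h runs of replicate 2 in both arms, an alternative added after the data were seen, 19 members were called in new protein and 27 in H share. The shares of all proteins called without these runs were not worked out.

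**Figure D1:**
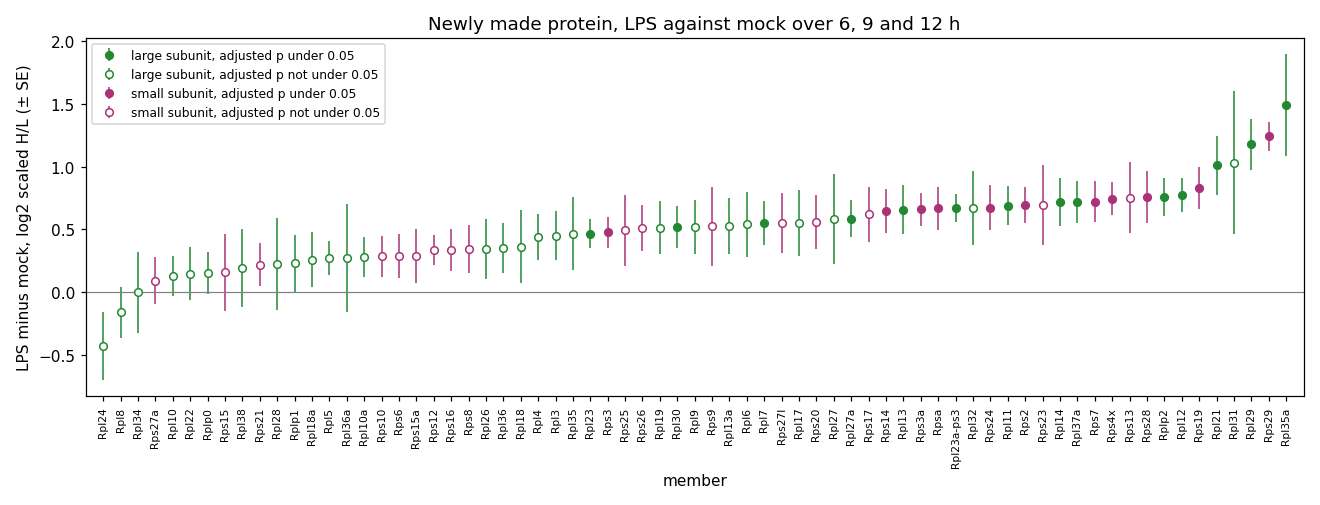
Change in newly made protein for 69 of the 71 tested members, LPS minus mock over 6, 9 and 12 h (log2 scaled H/L, point with its standard error); the 25 filled points are called members. Estimates run from -0.43 (Rpl24) to 1.49 (Rpl35a), and large and small subunit members are mixed along the order.

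The scale of the ratios bears on this count. With the normalised ratios the authors deposited, 2 members were called higher (3.86% of all proteins higher, 11.7% lower) and the members' median was -0.02. On that scale the median of all proteins was itself shifted to -0.48. Relative to the median of all proteins the members stood 0.49 higher with the run factor, 0.49 without it, 0.49 with each channel centred, 0.55 with summed intensities and 0.46 with the normalised ratios, all on the log2 scale. The run factor and the centring move every protein of a run by the same amount, so they leave this excess nearly unchanged by construction. The normalised ratios also came close to a common shift, with a median of -0.49 for members and -0.51 for non-members of the highest summed intensity. The similar excess on these scales is therefore no separate check. Summed intensities, a different measure of the same runs, gave a similar excess of 0.55. The count of calls was not similar across the 5 scales.

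The H share, H as a percentage of H plus M in the same run, needs no run factor and was examined as well after the data were seen. Its median over members was 7.31% ± 0.62 (SD, n = 2) at 0 h, 10.2% ± 0.66 in mock and 14.4% ± 0.71 in LPS cells at 12 h, and 15.6% ± 0.60 and 21.3% ± 0.59 at 24 h. The median of all proteins was 13.7%, 20.6%, 21.7%, 29.4% and 31.7% in the same groups, so the members stood below it throughout. Over 6, 9 and 12 h the share was called higher after LPS for 33 of 71 members (13.9% of all proteins), with a median rise of 3.15 percentage points against 0.68 for all proteins, and 26 of the 27 members called in new protein were among them. At 24 h it was called higher for 35 of 72 (17.5% of all proteins), with a median of 5.56 points against 2.30, and 24 members were called at both. In H over M on the log2 scale 26 of 71 members were called higher (11.1% of all proteins). From replicate 2 alone 4 members were called in late H share and from replicate 1 alone 3, and at 24 h 0 and 1 by limma, with 26 and 31 members at an unadjusted p under 0.05.

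**Figure D2:**
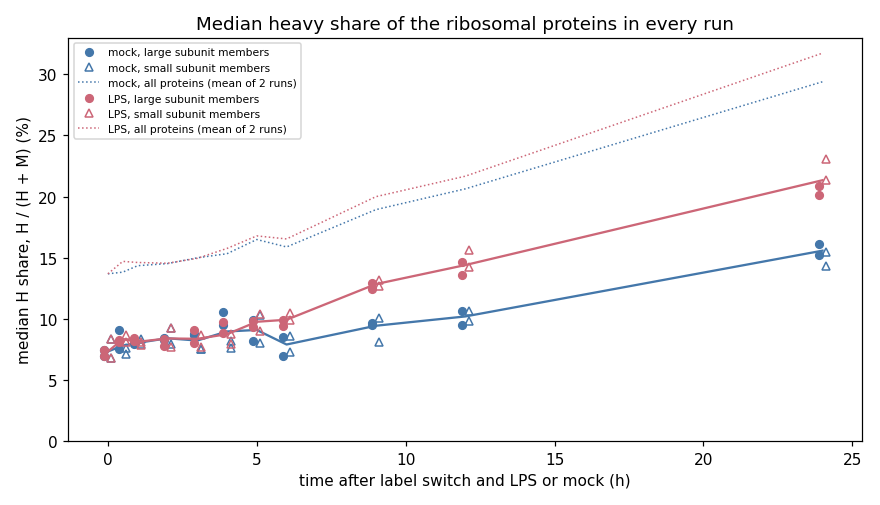
Median H share of large subunit members (circles) and small subunit members (triangles) in every run against time; lines join the means of the medians over all members, and dotted lines the medians of all proteins. The arms lie together to 4 h and apart at 9, 12 and 24 h, with LPS at 14.4% and mock at 10.2% at 12 h.

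Most calls came late. Heavy protein adds up over time on the signal present at 0 h, so an early change is harder to call. The members' median H share was 7.31% at 0 h, and 8.21% in mock and 8.35% in LPS cells at 3 h. The few early calls therefore do not date the onset. Over 1, 2 and 3 h, 1 of 72 members was called higher in new protein (0.356% of all proteins), namely Rps29, and the median was 0.06. By limma at single times the calls numbered 0 at 0.5 h (3 members at an unadjusted p under 0.05), 1 at 1 h (Rpl27a), 0 at 2 h (3 at an unadjusted p under 0.05), 1 at 3 h and 1 at 4 h (Rps29), 2 at 5 h (Rps2 and Rps29), 1 at 6 h (Rps29), 5 at 9 h, 13 at 12 h and 9 at 24 h. The share of all proteins called higher at those times was 0%, 0.0317%, 0.0645%, 0.36%, 0.737%, 1.15%, 2.67%, 5.42%, 6.86% and 7.43%. For 8 members the late change was itself greater than the early one by test (5.82% of all proteins), a count that fell to 0 without the run factor (19 at an unadjusted p under 0.05) and to 1 and 0 with replicate 1 or replicate 2 left out (22 and 15). The H share over 1, 2 and 3 h was called for 0 of 72 members by limma, with 2 members at an unadjusted p under 0.05.

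Rps29, a small zinc-binding protein of the 40S head, had the smallest adjusted p of the 71 members. Its H share was 1.90% and 1.34% at 0 h, 1.55% and 1.54% in mock against 3.28% and 3.41% in LPS cells at 3 h, and 3.05% and 3.06% against 7.35% and 7.27% at 6 h. At 12 h it was 6.68% and 6.86% in mock and 14.46% and 14.44% in LPS cells, and at 24 h 14.3% and 15.6% against 23.4% and 23.0%. Both LPS runs lay above both mock runs at every time from 1 h on. Late new protein rose by 1.24 ± 0.11 (SE, adjusted p = 1.39e-08), a fold of 2.37, and early new protein by 0.63 ± 0.11 (adjusted p = 0.00554). Its H signal at 0 h was the lowest of all members with a value, and its level per possible peptide was 6.71 and 8.46 times the median member in trypsin and 8.85 and 9.06 times in LysN digests.

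Among the other late rises, Rpl35a, a 60S protein mutated in some patients with Diamond-Blackfan anaemia, had the greatest estimate. Its scaled H/L ran from 0.0202 to 0.0482 in the 6 late mock runs (median 0.0323) and from 0.0671 to 0.118 in the 6 LPS runs (median 0.0992). The arms did not overlap, and the rise was 1.49 ± 0.40 (adjusted p = 0.0126), from a median of 6 peptide pairs a run. At 24 h its H share was 15.7% and 17.0% in mock and 19.9% and 19.6% in LPS cells, and the rise of 3.38 ± 2.59 points was not called (adjusted p = 0.459). Rpl29, a basic protein on the 60S surface that joins late in assembly, had a scaled H/L of 0.0313 to 0.0789 in late mock runs (median 0.0524) and 0.0618 to 0.149 in LPS runs (median 0.135). These ranges overlapped, and the rise was 1.18 ± 0.20 (adjusted p = 0.000119). Rpl31, at the rim of the exit tunnel, had an estimate of 1.03 ± 0.57 without a call (adjusted p = 0.358), although its late arms did not overlap. Rpl21 rose by 1.01 ± 0.23 (adjusted p = 0.00322).

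The P-stalk, the flexible arm of the 60S subunit that recruits elongation factors, is made of Rplp0 and the acidic pair Rplp1 and Rplp2, with Rpl12 at its base. Within it Rplp2 and Rpl12 were called in late new protein and Rplp0 and Rplp1 were not. The H share of Rplp2 ran from 5.55% to 10.5% in the late mock runs (median 8.48%) and from 10.5% to 19.8% in the LPS runs (median 14.5%), which overlapped narrowly. It rose by 6.37 ± 0.83 points (adjusted p = 2.17e-06). At 24 h the share of Rplp2 was 18.2% and 18.7% in mock and 30.0% and 28.6% in LPS cells, a rise of 10.9 ± 1.4 points (adjusted p = 3.32e-06). Rplp0, which anchors the stalk to the rRNA, stood at 15.2% and 15.0% against 20.5% and 20.1% at 24 h, a rise of 5.22 ± 1.64 points (adjusted p = 0.0248). Rplp1, the partner of Rplp2, stood at 14.2% and 15.9% against 20.8% and 19.7%, and its rise of 5.21 ± 2.37 points was not called (adjusted p = 0.145). Rpl12 rose by 5.27 ± 1.31 points (adjusted p = 0.00437). The difference of Rplp2 from its partners was not tested. The total level of Rplp2 changed by 0.06 ± 0.12 at 24 h, without a call (adjusted p = 0.765).

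The 5S particle brings Rpl5, Rpl11 and 5S rRNA into the 60S subunit, and free Rpl5 and Rpl11 can bind the p53 inhibitor Mdm2. Late new Rpl11 rose by 0.69 ± 0.16 (adjusted p = 0.0029), with scaled H/L of 0.0483 to 0.0776 in mock runs (median 0.0690) and 0.0782 to 0.133 in LPS runs (median 0.110), which did not overlap. Rpl5 changed by 0.27 ± 0.14 without a call (adjusted p = 0.286), and its ranges, 0.0883 to 0.125 and 0.0975 to 0.153, overlapped. The difference between Rpl5 and Rpl11 was not tested. At 24 h the H share of Rpl11 was 14.9% and 15.3% in mock and 20.2% and 20.3% in LPS cells. That of Rpl5 was 15.7% and 16.1% against 21.7% and 19.2%. In human monocytic cells Rpl13a leaves the ribosome after interferon-γ to silence inflammatory messages. Its late new protein changed by 0.53 ± 0.22 (adjusted p = 0.154). Of the late-joining 60S proteins on the list used, 3 of 7 were called higher in new protein, with a median of 0.23. The share called was 34.1% of large subunit members and 10.4% of all proteins. Of the proteins around the exit tunnel 0 of 8 were called in new protein by limma (3 at an unadjusted p under 0.05), with a median of 0.45. In H share 3 of 8 were called, against 41.5% of large subunit members and 13.9% of all proteins. Rpl10, the late-joining protein near the peptidyl transferase centre, changed by 0.13 ± 0.16 (adjusted p = 0.802).

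On the 40S subunit, 5 of 9 proteins of the messenger channel and decoding face were called higher in late new protein, with a median of 0.69. This list holds Fau, a 40S protein precursor that is not a member by name and is among the 5 called. Of the head 6 of 14 were called, with a median of 0.53 (some proteins stand on both lists). The share called was 43.3% of small subunit members and 10.4% of all proteins, so the head stood near its subunit. Rps19, the protein most often mutated in Diamond-Blackfan anaemia, rose by 0.83 ± 0.17 (adjusted p = 0.000782) and again at 24 h by 0.95 ± 0.29 (adjusted p = 0.0352), where summed intensities gave -0.90 without a call. Rps3, which lines the messenger entry and also serves in DNA repair and NF-κB signalling, rose by 0.48 ± 0.12 (adjusted p = 0.00989), and its arms, 0.0823 to 0.112 and 0.113 to 0.179, did not overlap. Summed intensities gave -0.04 for Rps3, without a call. Rpsa, also known as the laminin receptor, rose by 0.67 ± 0.17 (adjusted p = 0.00797).

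At 24 h the calls in H share were 13 of 41 large and 22 of 31 small subunit members, all higher after LPS, against 17.5% of all proteins, with median rises of 4.54 and 6.96 points. With either replicate left out 0 or 1 member was called in all, so the split of calls rests on both replicates. The medians of the large subunit were 15.2% and 16.1% in mock and 20.8% and 20.1% in LPS runs. Those of the small subunit were 14.3% and 15.5% in mock and 23.1% and 21.4% in LPS runs. The small subunit thus stood below the large one in both mock runs and above it in both LPS runs at 24 h, and this was not tested. The gap at 24 h was not the widest of the course: at 4 h in mock cells the mean medians were 10.0% for the large and 7.90% for the small subunit. Over all times the large subunit median was the higher one in 13 of 20 mock runs and in 9 of 20 LPS runs. In new protein at 24 h 9 of 72 members were called higher (7.43% of all proteins), 3 of the large and 6 of the small subunit. With either replicate left out 0 members were called by limma (7 and 17 at an unadjusted p under 0.05), with the normalised ratios 0 (3 at an unadjusted p under 0.05) and with summed intensities 1. The greatest rise among them was that of Rpl29, by 1.38 ± 0.35 (adjusted p = 0.00956).

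**Figure D3:**
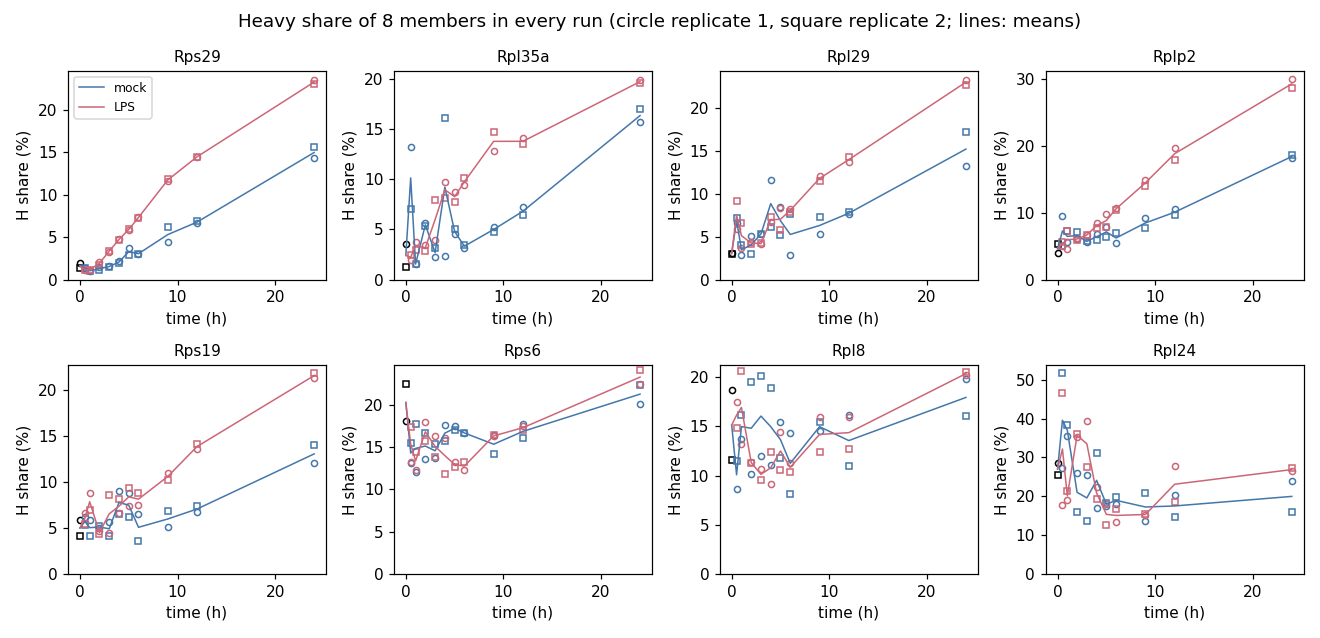
H share of 8 members in every run against time (circles replicate 1, squares replicate 2, lines the means; mock blue, LPS red, 0 h black). Rps29, Rplp2 and Rps19 part in the later hours, while Rps6, Rpl8 and Rpl24 start from 15.1% to 27.0% and their arms stay mixed at 6, 9 and 12 h.

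Heavy signal was present before heavy label was given, and unequally. At 0 h the mean H share of a member ran from 1.62% (Rps29) to 27.0% (Rpl24), with a median of 7.66%. Rps6 stood at 20.3%, Rpl34 at 16.1% and Rpl8 at 15.1%. Members with more heavy signal at 0 h had lower late estimates. Across 71 members, which share runs and run factors, the rank correlation of the 0 h share with the late change was -0.80 in new protein, -0.65 in H share and, at 24 h, -0.32 in H share. Of the 36 members at or under the median 0 h share 23 were called in late new protein (median 0.68), and of the 35 above it 4 (median 0.29). In H share these counts were 25 and 8. The lowest estimates, those of Rpl24, Rpl8 and Rpl34, belonged to members with high signal at 0 h, and its part in their values was not tested. The interquartile range of H share over members was 4.90 points at 0 h, 4.57 in mock and 2.24 in LPS cells at 12 h, and 2.91 and 3.18 at 24 h.

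**Figure D4:**
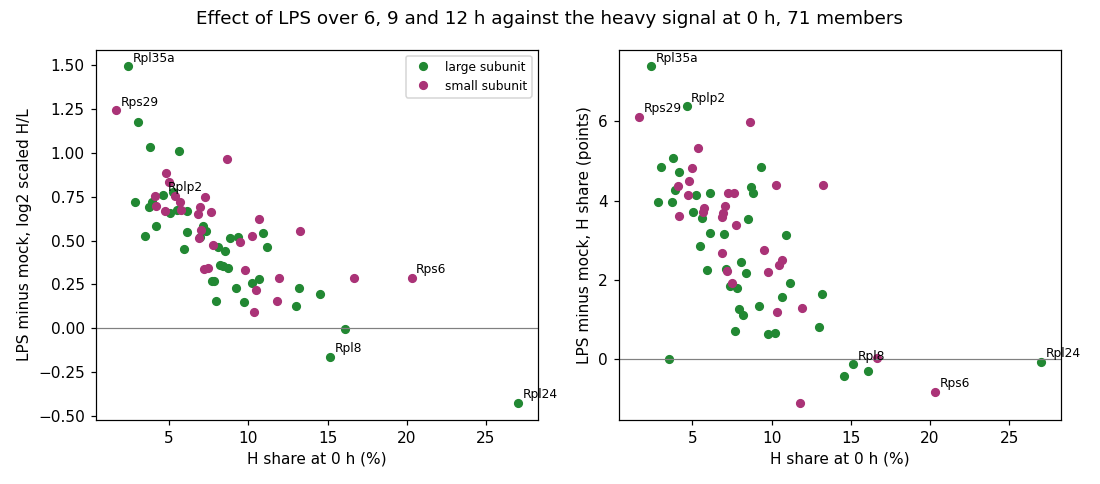
Late change after LPS against the H share at 0 h for 71 members, in new protein (left, log2) and in H share (right, percentage points). Points fall from upper left (Rps29, 1.62% at 0 h) to lower right (Rpl24, 27.0% at 0 h) in new protein, with a rank correlation of -0.80.

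Replacement without stimulus was slow. In mock cells the H share of a member was a median of 2.65 points above 0 h at 12 h, called for 11 of 71 members (27.6% of all proteins), and 8.48 points at 24 h, called for 57 of 71 (63.3% of all proteins). The medians for all proteins were 5.87 and 13.6 points. Under LPS the gains were 7.45 points at 12 h, called for 47 of 71 (36% of all proteins), and 14.1 points at 24 h, called for 64 of 71 (65.8% of all proteins), against 6.93 and 16.2 points for all proteins. The M share fell more steeply with time under LPS than in mock for 27 of 71 members (11.9% of all proteins). These comparisons share the 0 h runs. The steepest mock slopes were those of Rpl10 and Rps27a, at -0.011 log2 units per hour each. Rps27a is made as a fusion with ubiquitin, and its protein group also names the ubiquitin gene Ubb, so its values are not those of Rps27a alone. The mock slope of Rpl24 was 0.033 ± 0.012, against the sign that replacement gives, from the highest heavy signal at 0 h.

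Total ribosomal protein moved by smaller amounts than new protein. Over 6, 9 and 12 h the sum of M/L and H/L was called higher for 10 of 71 members (9.98% of all proteins) and lower for 1 (9.2% of all proteins), with a median of 0.07 and 62 of 71 estimates above 0. The share called higher, 14.1%, was near the background, and the share called lower, 1.41%, was below it. The members' median total was higher in replicate 2 than in replicate 1 in all 21 groups, as was the run factor. A fit with the replicate number as a block called 22 members higher and 2 lower, and its share of all proteins was not worked out. Relative to the median of all proteins the members stood 0.07 higher on the log2 scale, and 0.27 higher with the normalised ratios. Rps6, the substrate of the S6 kinases, had a scaled total of 0.758 to 0.882 in mock runs (median 0.784) and 0.950 to 1.22 in LPS runs (median 1.06). The arms did not overlap, and it rose by 0.39 ± 0.10 (adjusted p = 0.0051). At 24 h the arms overlapped, at 0.728 and 1.12 in mock and 0.990 and 1.11 in LPS cells. In the late window the H share of Rps6 changed by -0.84 ± 1.16 points without a call (adjusted p = 0.823). Its late pre-existing protein rose by 0.41 ± 0.09 (adjusted p = 0.00259). With the normalised ratios, where the median of all proteins was -0.27, the estimate for total Rps6 was -0.16, without a call (adjusted p = 0.565). Pre-existing protein rose for 4 of 71 members (3.23% of all proteins), the others being Rpl18, Rpl35 and Rpl32, and fell for 1 (13.3% of all proteins), Rpl14. The calls of Rpl18, Rpl35 and Rpl32 were lost in 7, 7 and 8 of the 12 fits that each left out a run, while those of Rps6 and Rpl14 held in all 12. Without the run factor 0 members were called in total or pre-existing protein by limma, with 0 and 1 at an unadjusted p under 0.05.

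Rpl14, a protein on the 60S surface, was the only member called lower in total protein, in the late window and at 24 h. These calls depend on the scale. No member was called lower in either comparison with the normalised ratios or without the run factor, nor in the late window with summed intensities. The scaled total of Rpl14 at 24 h was 1.48 and 1.94 in mock and 1.07 and 1.22 in LPS cells. The arms did not overlap, and it fell by 0.57 ± 0.11 (adjusted p = 0.00036). In the late window it ran from 1.59 to 1.90 in mock (median 1.71) and from 1.34 to 1.62 in LPS runs (median 1.45). These ranges overlapped, and it fell by 0.23 ± 0.07 (adjusted p = 0.0135). Leaving out mock 9 h replicate 2, mock 12 h replicate 2 or LPS 9 h replicate 1 took that adjusted p to between 0.0557 and 0.0617. Late new Rpl14 rose by 0.72 ± 0.19 (adjusted p = 0.0123). That call was lost without mock 12 h replicate 1 (adjusted p = 0.0593) or LPS 9 h replicate 2 (adjusted p = 0.0602).

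At 24 h total protein was called higher for 18 of 72 members (17.3% of all proteins) and lower for 1 (19.8% of all proteins), with a median of 0.15. Rpl29 had a scaled total of 0.809 and 0.827 in mock and 1.24 and 1.33 in LPS cells and rose by 0.65 ± 0.14 (adjusted p = 0.000662). Rpl27a, at 0.718 and 0.856 against 1.06 and 1.14, rose by 0.49 ± 0.10 (adjusted p = 0.000566). Rpl23, on the face of the 60S subunit that meets the 40S and able to bind Mdm2, stood at 0.939 and 0.928 against 1.23 and 1.27 and rose by 0.42 ± 0.06 (adjusted p = 4.7e-06). None of these arms overlapped. Rps26, which contacts the messenger upstream of the start codon, rose by 0.39 ± 0.09 (adjusted p = 0.00154), and Rpl10a by 0.35 ± 0.11 (adjusted p = 0.0113). With the normalised ratios 1 member was called higher at 24 h (5.36% of all proteins). With the replicate block 32 were called, and the share of all proteins in that fit was not worked out. Relative to the median of all proteins the members stood 0.15 higher at 24 h, and 0.24 higher with the normalised ratios.

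**Figure D5:**
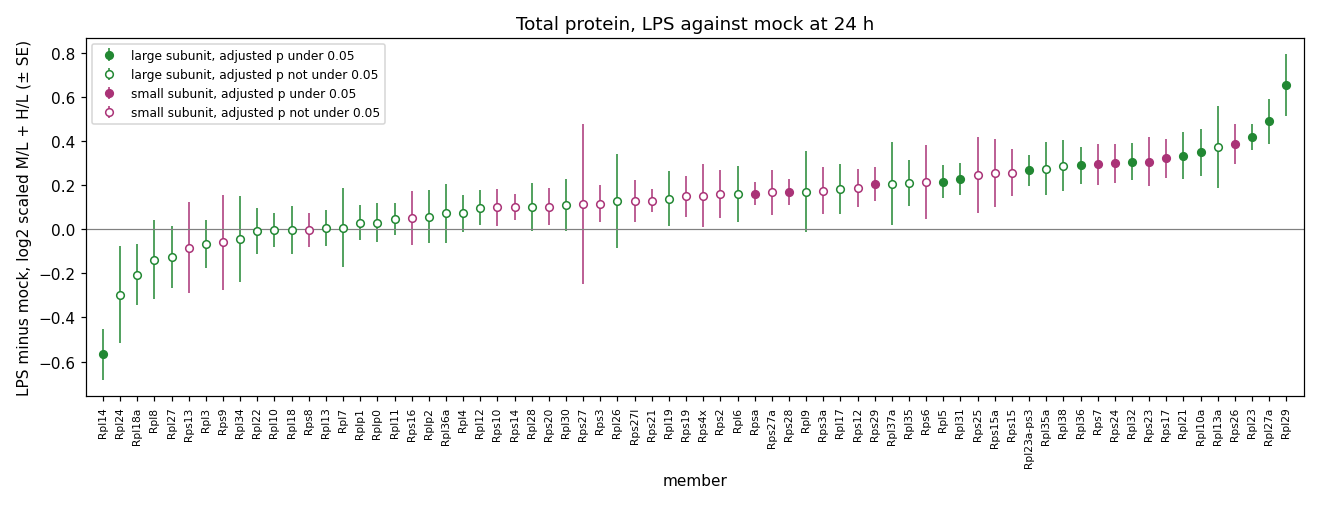
Change in total protein at 24 h for 70 of the 72 tested members, LPS minus mock (log2 scaled M/L plus H/L, point with its standard error; filled points have an adjusted p under 0.05). Rpl14 stands lowest at -0.57 and Rpl29 highest at 0.65.

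The naming rule found 74 protein groups with trypsin, 60 with AspN and 77 with LysN, so the sets set side by side here are not the same. At 0 h the members took 6.94% and 6.57% of the summed intensity per possible peptide in the trypsin samples, 6.53% and 6.19% with AspN and 9.27% and 8.15% with LysN. Of the 74 members 49 and 46 ranked among the 300 strongest proteins of the trypsin samples. The median large subunit member stood below the median small subunit member in all 6 samples, at 0.620 and 0.492 of it with trypsin, 0.352 and 0.359 with AspN and 0.491 and 0.428 with LysN. Single members varied with the enzyme: Rps28, a short 40S protein, was 1.00 and 1.38 times the median member with trypsin, 8.16 and 6.52 times with AspN and 18.9 and 15.9 times with LysN.

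Proteins that belong to the ribosome but not to the naming rule were measured as well. Fau, the precursor of the 40S protein eS30, rose in late new protein by 0.87 ± 0.23 (adjusted p = 0.0108), and Gnb2l1, the 40S scaffold also called Rack1, by 0.63 ± 0.16 (adjusted p = 0.00778). The group led by Gm10020, which also names Rpl15, rose by 0.77 ± 0.20 (adjusted p = 0.00799). Other such groups were not called. The group led by Gm16477, which also names Rpl7a, changed by 0.31 ± 0.16 (adjusted p = 0.286). That led by Gm17352, which also names Rps18, changed by 0.46 ± 0.27 (adjusted p = 0.405), and Rpl22l1 by 0.67 ± 0.72 (adjusted p = 0.757). Rps27l and its paralog Rps27, in contrast, are members by the naming rule. Rps27l rose in H share by 4.39 ± 1.42 points (adjusted p = 0.0355), a call that was lost in 10 of the 12 fits that each left out a run. Its new protein at 0.55 ± 0.24 was not called (adjusted p = 0.185). Rps27 itself rose in H share at 24 h by 21.2 ± 4.99 points (adjusted p = 0.00646), from a median of 2 peptide pairs a run. Its values were 18.5% and 16.8% in mock and 48.3% and 29.6% in LPS cells.

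Of 31 tested ribosome assembly factors 2 were called higher in late new protein (10.4% of all proteins), with a median of -0.08. They were Sbds, by 1.70 ± 0.23 (adjusted p = 6.17e-06), and Eif6, by 0.66 ± 0.18 (adjusted p = 0.015). Eif6 keeps a fresh 60S subunit from joining the 40S, and Sbds helps to release it. The H share of Sbds ran from 15.5% to 24.8% in late mock runs (median 22.9%) and from 45.1% to 62.2% in LPS runs (median 55.4%), which did not overlap. In total protein at 24 h 2 of 28 assembly factors were called higher and 12 lower (17.3% and 19.8% of all proteins), with a median of -0.32, among them Fbl by -0.60 ± 0.13, Nop56 by -0.60 ± 0.14 and Nop58 by -0.54 ± 0.13, the core of the box C/D particles that methylate rRNA. Of 24 ribosome-bound and quality control factors 2 were called higher in late new protein (Gnb2l1 and Rrbp1), and of 16 members of the TOR and S6 kinase list 1, again against 10.4% of all proteins. Of 39 tested mitochondrial ribosomal proteins 0 were called in late new protein by limma, against 10.4% of all proteins higher and 1.69% lower. At an unadjusted p under 0.05 there were 3, the median over the 39 was -0.21, and the difference from the cytosolic set was not tested.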

How the data were processed

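Proteins were measured by mass spectrometry after pulsed SILAC in 42 trypsin runs, each with an M and an H sample, and in 4 unlabelled 0 h samples cut with AspN or LysN. Per the file headers, the deposited M/L, H/L and H/M ratios, raw and normalised by the authors, the peptide pair counts behind each ratio, and the summed and per-peptide (iBAQ) intensities come from MaxQuant protein group tables. MaxQuant version: not given in the sources used here. The submitters' processing notes name build mm9. Reverse (90), contaminant (97) and site-only (216) groups were left out of 6266, some in more than 1 class, leaving 5899. Each run was scaled by the median summed ratio (M/L and H/L added) of 2628 proteins measured in M/L throughout, so levels are relative to the typical protein. log2 values were fitted with limma 3.58.1 (R 4.3.3) as means of 21 groups across all proteins with at least 4 of 6 values per arm in a window. The M share slope over 0.5 to 12 h needed 12 of 18 values per arm. p-values were adjusted by the Benjamini-Hochberg method and called under 0.05. The fit was tested on simulated data. Named were the 10 highest and 10 lowest members in late new protein, the largest calls of other comparisons, outliers, the extreme mock slopes and fixed roles, and a few of these are not reported here. Alternatives changed the scaling, the peptide pair minimum, the filter, the replicate block and the runs used. The members and lists were chosen with earlier results of these data known. Tables and plots were made in Python 3.11.15 (pandas 2.3.3, numpy 2.4.6; matplotlib 3.10.9).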

Additional observations from a re-analysis of the deposited data

Results flagged for a closer look

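For 8 members, 7 of them given here, the LPS effect on new protein over 6, 9 and 12 h differed by test from that over 1, 2 and 3 h (limma interaction across all proteins). The count fell to 0 or 1 with a replicate left out, to 0 without the run factor, to 1 with each channel centred, to 3 with summed intensities, and to 0 higher and 2 lower with the normalized ratios. On the log2 scale the late effect exceeded the early one by 0.84 for Rpl7 (adjusted p = 0.0432), 0.74 for Rps4x (adjusted p = 0.0167) and 0.73 for Rplp2 (adjusted p = 0.0437). It exceeded it by 0.72 for Rps3a (adjusted p = 0.0186), 0.71 for Rps2 (adjusted p = 0.0349), 0.68 for Rpl12 (adjusted p = 0.0334) and 0.61 for Rps29 (adjusted p = 0.0206).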

How the results depend on the processing

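Replicate numbers did not meet the bar set for pairing over all proteins: the correlation of same-numbered deviations had a median of 0.106 (range -0.108 to 0.487), over 0.1 for 107 of 210 pairs of groups. A shift shared by replicate number was present all the same: the members' median total and pre-existing level and the run factor were higher in replicate 2 in all 21 groups. With the replicate block, pre-existing protein gave 10 higher and 4 lower calls (4 and 1 without it), total late 22 and 2 (10 and 1), late minus early 17 (8) and total at 24 h 32 (18). The shares of all proteins called with the block were not worked out. The deposited normalized ratios gave 2 higher in new late, 18 higher and 2 lower in pre-existing, 2 and 0 in total late, 1 and 1 in H over M, 7 in new early, 0 higher and 2 lower in late minus early, 0 in new at 24 h, 1 and 0 in total at 24 h, and 0 steeper slopes (0 at an unadjusted p under 0.05). Without the run factor, pre-existing, total late, new early, late minus early and total at 24 h gave 0 calls by limma (1, 0, 2, 19 and 1 members at an unadjusted p under 0.05) and new at 24 h 3. With each channel centred, late minus early gave 1 and new at 24 h 5; a sum of separately centred channels is no level, so totals have no such value. Summed intensities gave 2 higher and 0 lower in pre-existing, 0 lower in total late, 0 in new early, 3 in late minus early, 1 in new at 24 h and 7 in total at 24 h. With the mean 0 h H subtracted, 7 of 32 testable members were called in new late, 9 of 47 in H over M, 0 of 20 in new early, 0 of 17 in late minus early and 0 of 50 in new at 24 h, since values at or under 0 were lost.

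Leaving out runs gave 6 to 27 higher in new late, 1 to 5 higher and 0 to 1 lower in pre-existing, 1 to 16 and 0 to 1 in total late, 3 to 25 in H over M, 0 in new early, 0 to 1 in late minus early, 0 in new at 24 h, 3 to 12 higher and 1 to 2 lower in total at 24 h, 4 to 10 steeper slopes, 3 to 33 in late H share and 0 to 1 in H share at 24 h. A lone sample is assumed there to vary like the other groups. The low ends in new late, H over M, slope and H share came from leaving out a whole replicate. The shares of all proteins called with runs left out were not worked out.

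On the normalized ratios, where the median of all proteins was -0.48 in new late and -0.27 in total late, members stayed 0.46 and 0.27 above that median. Against 0, values changed sign there for the members' medians of new late (-0.015), total late (-0.0044), late minus early (-0.35) and the slope (0.0102), for Rpl23 in new late (-0.026), Rps28 in pre-existing (0.063), and Rpl35 (-0.12) and Rps6 (-0.16) in total late. They changed sign with summed intensities for Rps3 in new late (-0.039), Rps19 in new at 24 h (-0.90) and Rps21 in total at 24 h (-1.12). The causes were not tested. Few peptide pairs limit Rpl35a, Rpl34 (6 a run each) and Rps27 (2).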
